A study of Mus musculus with 12 samples.

Results

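Described here are 7 clock genes of the Rev-erb, ROR and PAR bZIP families in mouse inguinal white adipose tissue (iWAT): Nr1d1, Nr1d2, Rora, Dbp, Tef, Hlf and Nfil3. They were chosen by gene symbol with earlier results of these data known, so the shares of members called below are descriptions. They are 7 of 24091 genes in the deposited table, and all 7 were among the 15413 genes tested. RNA was sequenced from 12 libraries, 3 in each of 4 groups of C57BL/6 mice, each group labelled by genotype (BMKO or BMCtr, written bBMKO and bBMCtr below) and by temperature. The bBMKO mice carried a Prx1-Cre transgene and floxed Bmal1 (BM fl/fl), and the bBMCtr mice were Cre-negative littermates with the same floxed alleles. The cold groups were kept at 10 °C for 2 weeks and the ambient groups at 22 °C by the series' design text. The groups are therefore ambient bBMKO, ambient bBMCtr, cold bBMKO and cold bBMCtr, with n = 3 each. Prx1-Cre is active in progenitors and mature fat cells of subcutaneous depots, so other cells in the pad, such as blood and vessel cells, keep Bmal1. The labels give neither age nor hour of collection. A legend on pathways in iWAT of the younger mice gives zeitgeber time 3, in the light phase, and no hour is named for the cold libraries in the sources used here. The study's methods place cold acclimation at 10 to 12 weeks of age, and a legend places the ambient mice at 6 weeks, so age may differ between temperatures.

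Rev-erb proteins are nuclear receptors that repress transcription, and ROR proteins activate it from the same DNA elements, among them those of Arntl, the gene of Bmal1. Dbp, Tef and Hlf encode PAR bZIP activators that bind D-box elements, and Nfil3 encodes a repressor that binds the same elements. Bmal1 with Clock or Npas2 drives Nr1d1, Nr1d2 and Dbp through E-box elements, and Rev-erb feeds back on Arntl, which makes these genes the stabilizing loop and the output arm of the clock in fat as in other tissues.

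The 4 promoter stretches below are shown because each holds a motif searched here within 250 bases before the RefSeq start site (GRCm38.p6). The windows of Rora, Dbp and Hlf held none of the motifs searched. All 7 genes were matched by symbol, with 8 promoters since Tef has a pair of starts. Motifs were searched on both strands. The E-box CACGTG was in 6.02% of 32851 mouse promoter windows of this length, and among the 7 genes in Tef alone, at both of its starts. The E′-box CACGTT was in 3.85% of windows and in Nr1d1, where it lies on the opposite strand 28 to 23 bases before the start and so reads AACGTG. The ROR core AGGTCA was in 14.0% of windows and in Nr1d2, 77 to 72 bases before the start, and in Nfil3, 12 to 7 bases before it on the opposite strand, where it reads TGACCT. The full ROR response element (RORE), which contains the ROR core, was in 0.177% of windows and in 0 of the 7 genes. A D-box (TTATGTAA or TTACGTAA) was in 0.931% of windows and in 0 of the 7. These are matches of letters in a short window and show no binding. Capitals mark the motif, and each sequence runs in the direction of its gene.

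Nr1d1 (chr11:98775378-98775627, minus strand): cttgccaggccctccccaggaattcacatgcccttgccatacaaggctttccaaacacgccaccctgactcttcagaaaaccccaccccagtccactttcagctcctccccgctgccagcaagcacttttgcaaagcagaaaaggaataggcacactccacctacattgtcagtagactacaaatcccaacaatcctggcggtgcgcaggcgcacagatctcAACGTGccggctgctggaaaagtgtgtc
Nr1d2 (chr14:18239107-18239356, minus strand): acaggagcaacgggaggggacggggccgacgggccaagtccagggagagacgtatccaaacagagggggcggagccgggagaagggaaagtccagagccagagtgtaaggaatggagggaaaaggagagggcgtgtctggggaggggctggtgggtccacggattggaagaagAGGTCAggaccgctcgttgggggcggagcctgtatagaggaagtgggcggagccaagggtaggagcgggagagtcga
Tef (chr15:81802423-81802672, plus strand): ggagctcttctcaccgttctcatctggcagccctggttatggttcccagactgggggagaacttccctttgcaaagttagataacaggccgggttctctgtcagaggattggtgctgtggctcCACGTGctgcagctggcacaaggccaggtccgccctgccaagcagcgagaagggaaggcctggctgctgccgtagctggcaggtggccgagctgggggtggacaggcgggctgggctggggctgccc
Nfil3 (chr13:52981040-52981289, minus strand): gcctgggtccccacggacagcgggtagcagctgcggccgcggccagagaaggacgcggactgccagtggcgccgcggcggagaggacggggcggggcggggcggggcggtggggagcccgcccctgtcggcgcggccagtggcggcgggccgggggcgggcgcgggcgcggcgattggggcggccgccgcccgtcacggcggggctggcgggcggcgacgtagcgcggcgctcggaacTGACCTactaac

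The libraries held 17887795 to 21436282 counts, and the member with the fewest counts in any library was Nfil3 with 161. Adipoq, the fat cell marker adiponectin, was at 1082.0 to 3074.6 CPM (counts scaled to a fixed library size) across all 12 libraries, and Prrx1, whose regulatory sequence drives the Cre, at 97.2 to 164 CPM. The libraries differ in ways other than genotype and temperature. Xist, an RNA of female cells, was at 0.525 to 2.98 CPM in the 6 cold libraries and at 1312.6 to 1517.7 CPM in the 6 ambient ones, while legends call the RNA-seq mice male for the ambient libraries in 1 place and female for ambient and cold libraries in another. Genes of the Y chromosome summed to 230 to 277 CPM in the cold libraries, against 0 to 0.108 CPM in 5 ambient libraries and 10.1 CPM in replicate 2 of ambient bBMKO. Markers of mammary epithelium summed to 0.832 to 4.13 CPM in the cold and to 619 to 1205.8 CPM at ambient temperature, with 8 of 8 markers lower in the cold in each genotype. By the call defined below, 12.4% of all genes were lower in the cold in bBMKO and 11.3% in bBMCtr. Temperature, sex and the age named above cannot be told apart in these libraries, nor can any difference in hour of collection. A difference between temperatures is therefore a difference between these sets of mice. In bulk tissue, fewer cells of a type and less RNA per cell cannot be told apart.

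Between genotypes, most of the family moved, and in opposite directions. Nr1d1, Nr1d2, Dbp and Hlf were lower and Nfil3 was higher in bBMKO than in bBMCtr at both temperatures. Tef was lower in the cold, and Rora was not called at either temperature. No series of hours is labelled, so a change in daily mean level and one in daily timing or swing cannot be told apart between genotypes. Genes were called in edgeR's quasi-likelihood test over all genes where the fold change exceeded 1.5, p was below 0.05 before adjustment, and the value adjusted by Benjamini-Hochberg was below 0.25. At ambient temperature 5 of 7 members were called, 1 higher and 4 lower, against 8.63% of all genes tested (3.88% higher, 4.75% lower). In the cold 6 of 7 were called, 1 higher and 5 lower, against 22.8% of all genes (9.67% higher, 13.1% lower). For the mean of both genotype effects, 6 of 7 were called, 1 higher and 5 lower, against 17.8% of all genes (6.38% higher, 11.5% lower). The groups' libraries did not overlap for 6 of 7 members at each temperature, against 21.1% of all genes at ambient temperature and 56.5% in the cold. The median log2 fold change of the 7 at ambient temperature was −0.80, against −0.01 over all genes tested, and that in the cold was −1.42, against 0.05. With scaling to library size alone, the median over all genes shifted to −0.13 at ambient temperature and to −0.17 in the cold, and the calls over all genes split into 426 higher and 1165 lower (598 and 732 with TMM scaling) and into 761 higher and 2930 lower (1491 and 2022 with TMM scaling). Changes of that size or less are read here relative to that shift.

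**Figure D1:**
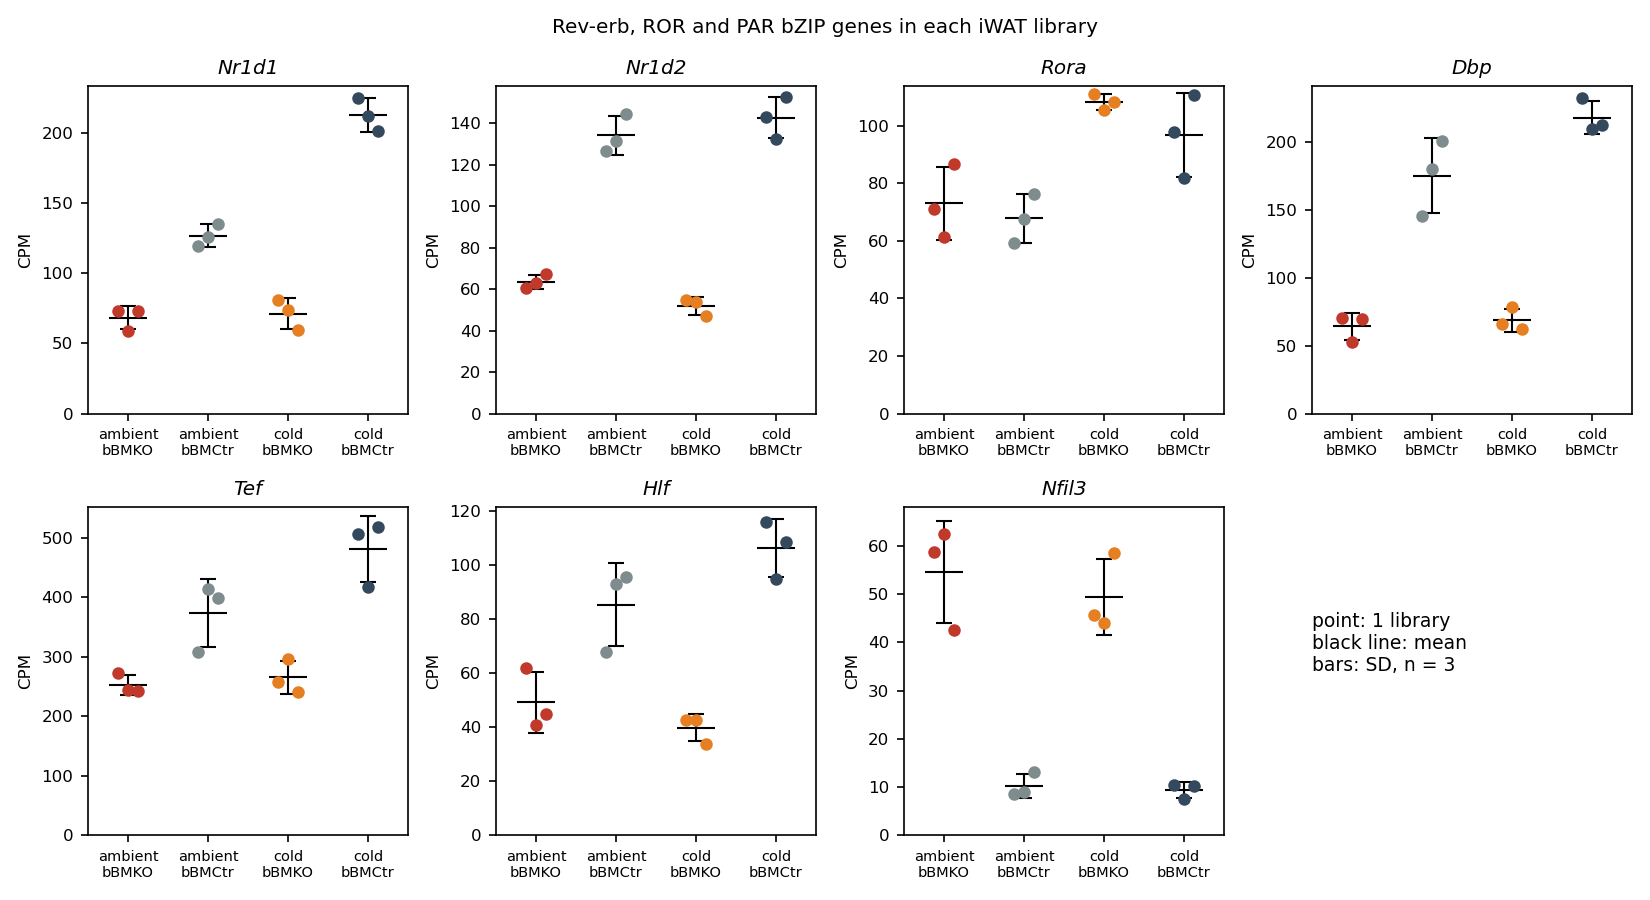
CPM (linear axis from 0) of the 7 genes in each iWAT library, by group. Points are libraries, and black lines and bars are the mean and SD of 3 libraries. Nfil3 lies at 42.5 to 62.4 CPM in the bBMKO libraries and at 7.56 to 13.1 CPM in the bBMCtr ones, Rora overlaps between genotypes, and the other 5 genes lie lower in bBMKO at each temperature.

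Nr1d1 encodes Rev-erbα, the haem-binding repressor of Arntl. It lies on the minus strand at chr11:98767932-98775377 (mm10). At ambient temperature Nr1d1 had 72.8, 58.6 and 73.0 CPM in the 3 bBMKO libraries, against 119, 126 and 135 CPM in the bBMCtr libraries. Cold libraries had 80.9, 73.8 and 59.3 CPM in bBMKO, against 225, 212 and 201 CPM in bBMCtr. Every bBMKO library was below every bBMCtr library, and the bBMCtr libraries of the cold stood above all others. Nr1d1 fell by 0.90 (log2) in the ambient libraries (standard error 0.12, adjusted p = 0.00424 by edgeR), to 53.7% of the bBMCtr level. In the cold it fell by 1.58 (standard error 0.12, adjusted p = 6.94e-05), to 33.5% of the bBMCtr level.

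The end of Nr1d1 overlaps Thra, the gene of a thyroid hormone receptor on the opposite strand, over 1075 bases, and 263 of the 3077 exonic bases of Nr1d1 in GENCODE vM21 are shared. Whether reads were counted by strand is not given in the sources used here, so reads from the shared bases cannot be assigned with certainty. Thra moved the other way, with 166.9 CPM in bBMKO and 98.1 CPM in bBMCtr at ambient temperature (log2 fold change 0.77, adjusted p = 0.00438) and with 229.9 and 118.7 CPM in the cold (0.95, adjusted p = 0.000442).

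Nr1d2 encodes Rev-erbβ, which represses many of the same genes, and spans chr14:18204056-18239106. It had 60.7, 62.8 and 67.2 CPM in ambient bBMKO, against 126, 132 and 144 CPM in ambient bBMCtr. Its cold values were 54.7, 53.8 and 47.1 CPM in bBMKO, against 143, 132 and 152 CPM in bBMCtr. Replicates lay close together, and the gap between genotypes was far wider than their spread. Nr1d2 fell by 1.08 (log2) in the ambient libraries (standard error 0.09, adjusted p = 0.000208), and in cold libraries it fell by 1.46 (standard error 0.09, adjusted p = 1.25e-05). By p-value it ranked 9 of 15413 genes at ambient temperature and 8 in the cold, ahead of the other 6 members.

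Rora encodes RORα, the activator that shares DNA elements with Rev-erb, in a gene of 734 kb at chr9:68653786-69388246. It had 71.3, 61.2 and 86.7 CPM in ambient bBMKO, against 59.4, 67.6 and 76.5 CPM in ambient bBMCtr. Cold Rora values were 111, 105 and 108 CPM in bBMKO, against 97.8, 81.7 and 110.7 CPM in bBMCtr. The genotypes overlapped at each temperature. The log2 fold change of Rora between genotypes was 0.11 at ambient temperature (95% interval −0.21 to 0.43, adjusted p = 0.703) and 0.16 in the cold (−0.16 to 0.48, adjusted p = 0.404), and its sign turned with scaling to library size alone (−0.0086 and −0.0503). The intervals exclude a change in Rora as large as that of Nr1d1 or Nr1d2. A short gene on the same strand inside Rora, 9530091C08Rik, shares no exonic base with it in GENCODE vM21 and had at most 47 counts in any library.

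Dbp encodes the PAR bZIP activator with the widest daily swing in many tissues, and lies at chr7:45705247-45710203. Its ambient values were 70.0, 52.9 and 69.6 CPM in bBMKO, against 145, 179.8 and 200.2 CPM in bBMCtr. In the cold they were 65.6, 78.3 and 61.9 CPM in bBMKO, against 232, 209 and 212 CPM in bBMCtr. All 6 bBMKO libraries fell within 52.9 to 78.3 CPM, below the lowest bBMCtr library. Dbp fell by 1.45 (log2) in the ambient libraries (standard error 0.15, adjusted p = 0.000603), and in cold libraries it fell by 1.67 (standard error 0.15, adjusted p = 0.000125), to 36.6% and 31.5% of the bBMCtr level.

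Dbp shares 539 of its 2993 exonic bases (GENCODE vM21) with Sphk2, a sphingosine kinase gene on the opposite strand. Sphk2 was at 49.8 CPM in bBMKO and 38.5 CPM in bBMCtr at ambient temperature (log2 fold change 0.37, adjusted p = 0.0778) and at 51.0 and 34.7 CPM in the cold (0.55, adjusted p = 0.00494), below the fold change limit at each. As with Nr1d1, reads from the shared bases cannot be assigned with certainty.

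Tef encodes the PAR bZIP activator with the highest CPM of the family, and spans chr15:81802673-81826863. Its ambient values were 272, 244 and 242 CPM in bBMKO, against 308, 413 and 398 CPM in bBMCtr. In the cold they were 258, 296 and 241 CPM in bBMKO, against 506, 417 and 519 CPM in bBMCtr. The genotypes did not overlap, but the ambient gap between the nearest libraries was small beside the spread within bBMCtr. The ambient log2 fold change of Tef was −0.56 (standard error 0.13, adjusted p = 0.0439), just short of the limit of 1.5-fold, and Tef was called with scaling to library size alone (−0.68), in limma on FPKM (−0.63), with only the ambient groups in the fit (−0.60), without ambient bBMCtr replicate 1 (−0.70) and without ambient bBMKO replicate 1 (−0.62). In the cold Tef fell by 0.86 (standard error 0.13, adjusted p = 0.00214).

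Hlf, the third PAR bZIP activator, lies at chr11:90336535-90390917. At ambient temperature Hlf had 61.9, 40.8 and 44.7 CPM in bBMKO, against 67.7, 92.9 and 95.6 CPM in bBMCtr. In the cold it had 42.7, 42.8 and 33.9 CPM in bBMKO, against 116.0, 94.8 and 108.6 CPM in bBMCtr. The genotypes were close at ambient temperature, where replicate 1 of each lay nearest the other genotype, and wide apart in the cold. Hlf fell by 0.80 (log2) in the ambient libraries (standard error 0.18, adjusted p = 0.0378), and in cold libraries it fell by 1.42 (standard error 0.18, adjusted p = 0.000939).

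Nfil3, also called E4bp4, encodes the bZIP repressor that competes with the PAR bZIP activators, at chr13:52967209-52981039. It had 58.7, 62.4 and 42.5 CPM in ambient bBMKO, against 8.48, 8.98 and 13.1 CPM in ambient bBMCtr. Its cold values were 45.7, 44.1 and 58.5 CPM in bBMKO, against 10.5, 7.56 and 10.1 CPM in bBMCtr. The lowest bBMKO library was over 3 times the highest bBMCtr library. Nfil3 rose 5.36-fold at ambient temperature (log2 fold change 2.42, standard error 0.22, adjusted p = 0.000389) and 5.28-fold in the cold (2.40, standard error 0.22, adjusted p = 0.000139). It had the largest genotype effect of the 7 members and the only called rise.

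**Figure D2:**
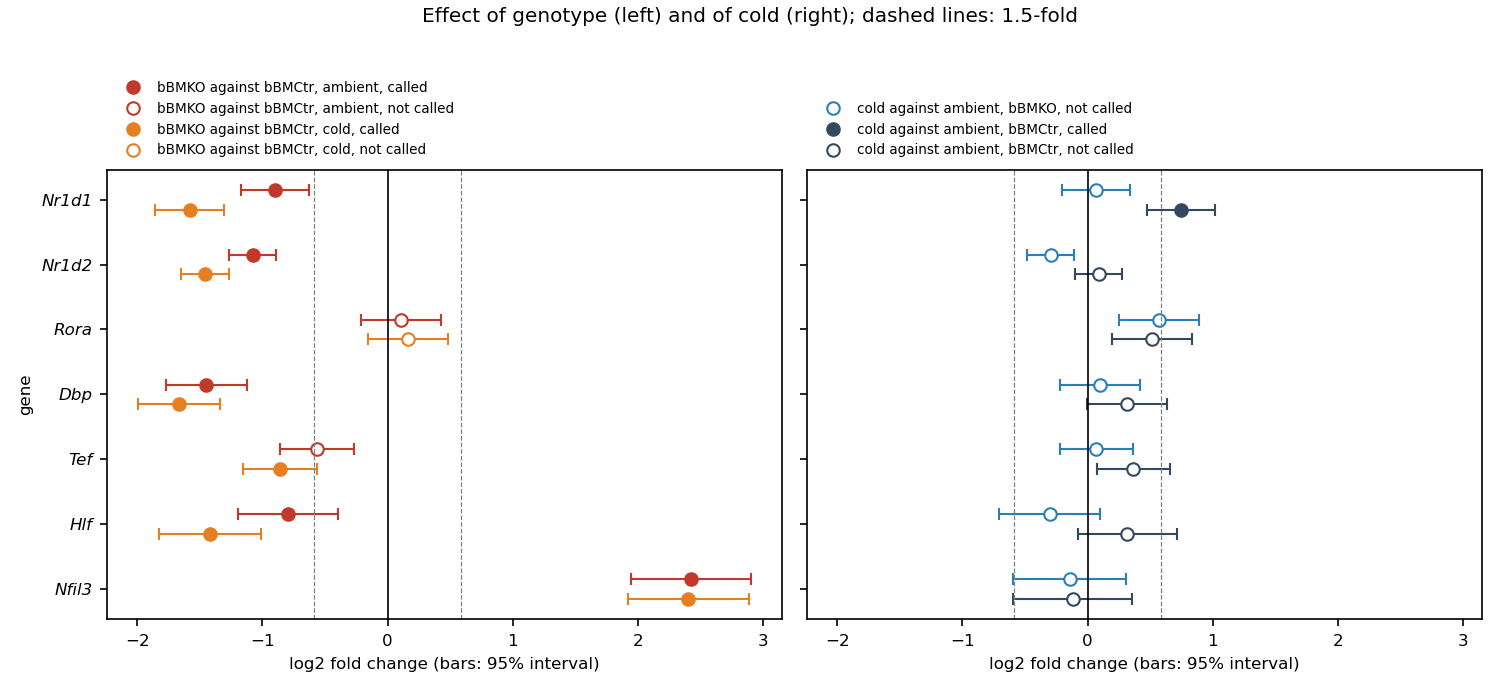
Log2 fold changes (x axis) of the 7 genes (y axis) between genotypes, bBMKO over bBMCtr, in the left panel and between temperatures, cold over ambient, in the right panel. Bars are 95% intervals from edgeR, filled points were called and dashed lines mark a fold change of 1.5. Genotype effects run from −1.67 for Dbp in the cold to 2.42 for Nfil3 at ambient temperature, whereas of 14 effects of temperature only that of Nr1d1 in bBMCtr (0.75) was called.

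Markers of other cells moved with genotype in part. Over all genes, 3.88% were called higher and 4.75% lower in bBMKO at ambient temperature, and 9.67% and 13.1% in the cold. Calls of 1 or 2 markers of a list in the cold are not read as more than those shares. Markers of B and T lymphocytes summed to 11.1 to 32.9 CPM in cold bBMKO, against 446 to 690.1 CPM in cold bBMCtr, with 8 of 8 lower by edgeR and by DESeq2. At ambient temperature they summed to 16.0 to 240.1 CPM in bBMKO and to 17.4 to 852.1 CPM in bBMCtr, with 0 of 8 called by edgeR, 0 at an unadjusted p under 0.05, 1 called by DESeq2, and a median log2 fold change of −2.10. Fat cell markers summed to 20244 to 24877 CPM in bBMKO and to 13807 to 17799 CPM in bBMCtr at ambient temperature, with 2 of 8 higher, and to 29865 to 36193 and 21614 to 26700 CPM in the cold, with 3 of 8 higher. Brown and beige fat cell markers summed to 117 to 214 CPM in bBMKO and to 56.8 to 80.4 CPM in bBMCtr at ambient temperature, with 4 of 7 higher, and to 227 to 2374.1 and 150.5 to 450.5 CPM in the cold, with 2 of 7 higher. Markers of adipose progenitors, among the cells in which Prx1-Cre acts, summed to 2309.9 to 3277.1 CPM in bBMKO and to 2404.7 to 2870.0 CPM in bBMCtr at ambient temperature, with 1 of 7 lower (Pi16). In cold libraries they summed to 2453.9 to 2743.6 CPM in bBMKO and to 1950.9 to 2027.6 CPM in bBMCtr, with no overlap and 1 of 7 higher (Cd34). Skeletal muscle markers varied from 41.9 to 6917.7 CPM over all libraries and overlapped between genotypes. The part of these cells in the genotype effects was not tested. Without replicate 2 of ambient bBMKO, the library with reads from Y-linked genes, the same 5 members were called at ambient temperature and the same 6 in the cold.

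Per unit of gene length, the order of the 7 genes differed between genotypes. Levels in this paragraph are FPKM, which are scaled to transcript length and sequencing depth and so can be compared between genes. In ambient bBMKO, Dbp (25.8 ± 4.32, SD, n = 3) and Tef (25.8 ± 1.08) led, followed by Nfil3 (16.8 ± 2.74) and Nr1d1 (16.7 ± 2.26), then Nr1d2 (8.64 ± 0.82), Hlf (5.62 ± 1.14) and Rora (3.98 ± 0.85). In ambient bBMCtr, Dbp (74.2 ± 9.30) led, followed by Tef (40.1 ± 5.32), Nr1d1 (32.7 ± 1.03), Nr1d2 (19.2 ± 0.74), Hlf (10.3 ± 1.58), Rora (3.88 ± 0.36) and Nfil3 (3.31 ± 0.71). Nfil3 was thus among the lowest of the family in controls and level with Nr1d1 in bBMKO. The libraries of Dbp and Tef, of Nfil3 and Nr1d1, and of Hlf and Rora overlapped in ambient bBMKO, and those of Rora and Nfil3 in ambient bBMCtr, while other neighbours did not.

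The cold groups gave a like picture. In cold bBMKO the FPKM were 25.4 ± 3.60 for Dbp, 24.9 ± 2.94 for Tef, 16.0 ± 2.05 for Nr1d1, 14.1 ± 2.56 for Nfil3, 6.47 ± 0.41 for Nr1d2, 5.40 ± 0.14 for Rora and 4.19 ± 0.48 for Hlf. In cold bBMCtr they were 91.8 ± 5.05 for Dbp, 54.5 ± 3.03 for Nr1d1, 51.4 ± 5.70 for Tef, 20.2 ± 1.41 for Nr1d2, 12.8 ± 1.29 for Hlf, 5.51 ± 0.83 for Rora and 3.03 ± 0.51 for Nfil3. The neighbours Dbp and Tef, and Nr1d1 and Nfil3, overlapped in cold bBMKO, and Nr1d1 and Tef in cold bBMCtr. Rora lay above Hlf in cold bBMKO, the only group in which it did.

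The activators and the repressor of the D-box can be set side by side in each library. The summed FPKM of Dbp, Tef and Hlf was 60.9, 50.3 and 60.6 in ambient bBMKO, against 106.6, 132 and 135 in ambient bBMCtr. In the cold the sum was 50.6, 62.5 and 50.5 in bBMKO, against 166, 145 and 157 in bBMCtr. Divided by the FPKM of Nfil3, it was 3.51 ± 0.89 in ambient bBMKO and 38.3 ± 6.32 in ambient bBMCtr (SD, n = 3 each), and 3.97 ± 0.96 in cold bBMKO and 52.1 ± 6.08 in cold bBMCtr. The genotypes lay far apart in this ratio at each temperature, and 4.88 was the highest value of any bBMKO library and 32.7 the lowest of any bBMCtr library.

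For Rev-erb and ROR, the log2 CPM of Nr1d1 minus that of Rora was 0.03, −0.06 and −0.25 in ambient bBMKO, against 1.003, 0.90 and 0.82 in ambient bBMCtr. The cold differences were −0.46, −0.51 and −0.87 in bBMKO, against 1.20, 1.37 and 0.86 in bBMCtr. Nr1d1 was above Rora in every bBMCtr library on this scale, which is not corrected for length, and between 0.03 above it and 0.87 below it in the bBMKO libraries. These ratios restate the values above and carry no test of their own.

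**Figure D3:**
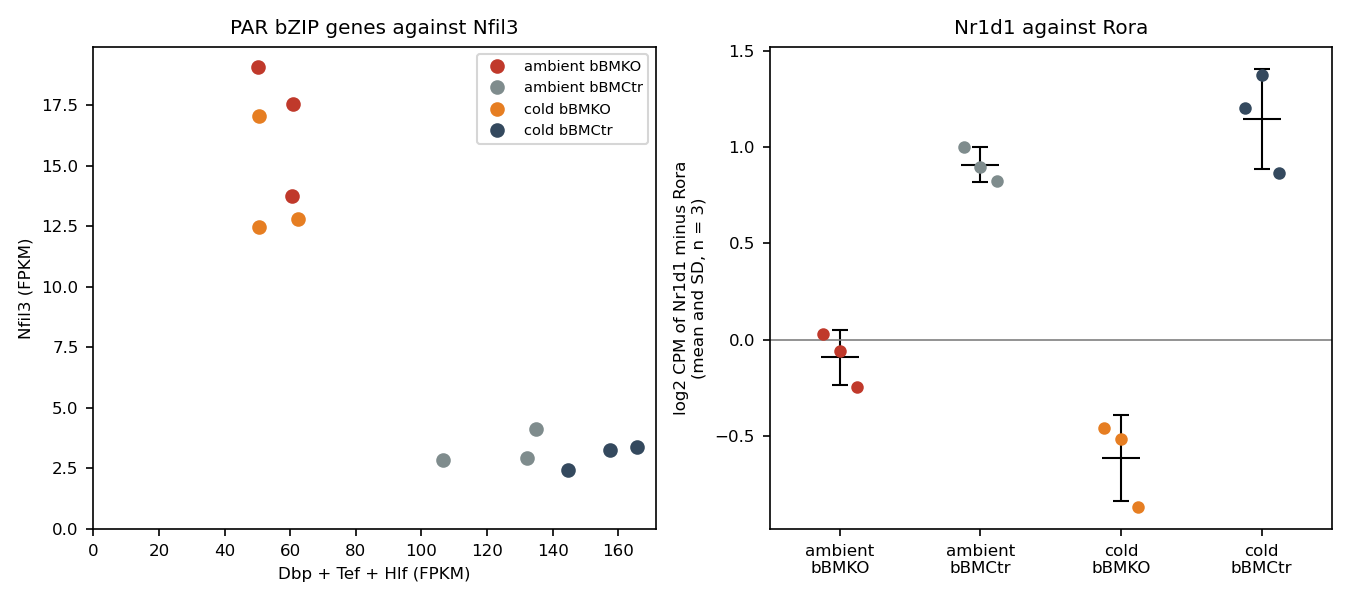
Left, FPKM of Nfil3 (y axis) against the summed FPKM of Dbp, Tef and Hlf (x axis), 1 point per library, both axes linear from 0. Right, log2 CPM of Nr1d1 minus Rora by group, with points for libraries and the mean and SD of 3. The 6 bBMKO libraries lie at 50.3 to 62.5 FPKM on the left x axis and the 6 bBMCtr libraries at 106.6 to 166 FPKM, with no overlap on either axis.

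For cold against ambient temperature, the members called were no larger a share than that of all genes. In bBMKO 0 of 7 members were called by edgeR, against 18.8% of all genes (6.41% higher, 12.4% lower). At an unadjusted p under 0.05 there were 2 members, Nr1d2 and Rora, against 37.6% of all genes, and the same 2 were those whose libraries did not overlap, against 44.0% of all genes. DESeq2 also called 0. In bBMCtr 1 of 7 was called, Nr1d1, which was higher, against 14.8% of all genes (3.48% higher, 11.3% lower), and 4 of 7 had libraries that did not overlap, against 32.1% of all genes. The median log2 fold change of the 7 was 0.06 in bBMKO and 0.32 in bBMCtr, against −0.02 and 0.00 over all genes tested.

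Nr1d1 rose in cold bBMCtr to 213 ± 11.9 CPM, against 127 ± 8.07 CPM in ambient bBMCtr (log2 fold change 0.75, standard error 0.12, adjusted p = 0.00213 by edgeR), and it was called in all 12 fits that left out 1 library. In bBMKO it was at 71.3 ± 11.02 CPM in the cold and at 68.2 ± 8.24 CPM at ambient temperature (log2 fold change 0.06, 95% interval −0.21 to 0.34, adjusted p = 0.73). Dbp and Tef had 1.24-fold and 1.29-fold higher estimates in cold than in ambient bBMCtr, with libraries that did not overlap, and missed the call (log2 fold changes 0.31 and 0.37, adjusted p = 0.187 and 0.0963). In bBMKO the same genes were at 0.10 and 0.07. The log2 fold change of Nfil3 was −0.14 in bBMKO and −0.12 in bBMCtr, with 95% intervals of −0.59 to 0.31 and −0.59 to 0.35.

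Rora had cold estimates of the same direction in both genotypes. It was at 108 ± 2.83 CPM in cold and 73.0 ± 12.8 CPM in ambient bBMKO (log2 fold change 0.57, adjusted p = 0.0178), and at 96.8 ± 14.5 CPM in cold and 67.8 ± 8.51 CPM in ambient bBMCtr (0.51, adjusted p = 0.0382). Both passed on p and fell short of 1.5-fold, and Rora was called when any 1 of 4 libraries was left out, with 0.70 in bBMKO without ambient replicate 3, 0.59 without cold replicate 2, and 0.63 in bBMCtr without either ambient replicate 3 or cold replicate 2. Nr1d2 had a log2 fold change of −0.29 in bBMKO (adjusted p = 0.0297), also short of the fold limit, and 0.09 in bBMCtr (adjusted p = 0.575). Hlf was at −0.30 in bBMKO and 0.32 in bBMCtr, and neither was called (adjusted p = 0.245 and 0.294).

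The interaction asks whether the genotype effect differed between temperatures, with the genotype effect at ambient temperature subtracted from that in the cold. Sex, and perhaps age and hour of collection, differ with temperature here, so it compares genotype effects between these sets of mice. By edgeR 0 of 7 members were called, against 0.766% of all genes (0.169% higher, 0.597% lower), and 3 members had an unadjusted p under 0.05, against 7.94% of all genes. The largest was that of Nr1d1 at −0.68 (95% interval −1.06 to −0.30, unadjusted p = 0.00249, adjusted p = 0.288). Nr1d1 was called with DESeq2 (adjusted p = 0.0413), with scaling to library size alone (0.148) and in limma on FPKM (0.152), and without ambient bBMCtr replicate 1 (0.147), ambient bBMKO replicate 2 (0.0923) or cold bBMKO replicate 1 (0.242). Nr1d2 (−0.38, adjusted p = 0.501) and Hlf (−0.62, adjusted p = 0.598) had the other estimates with an unadjusted p under 0.05. The estimates for Dbp (−0.22), Tef (−0.30), Rora (0.06) and Nfil3 (−0.02) had 95% intervals that included 0. For the interaction of Nfil3 the interval was −0.68 to 0.63.

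Arntl, whose product drives several of these genes, had 13.5, 16.9 and 18.2 CPM in ambient bBMKO, against 10.7, 7.58 and 3.77 CPM in ambient bBMCtr. Cold values of Arntl were 18.9, 17.6 and 19.6 CPM in bBMKO, against 8.25, 7.93 and 6.14 CPM in bBMCtr. Every bBMKO library was above every bBMCtr library (log2 fold changes 1.14, adjusted p = 0.0638, and 1.33, adjusted p = 0.0101, by edgeR). The ambient call was lost when only the ambient groups were fitted (1.09, adjusted p = 0.302). These counts are per gene and were not split by exon, so they check no label of genotype. By RT-qPCR the study reported Bmal1 transcript lost and Rev-erbα lowered in bBMKO iWAT, and it also reported Bmal1 protein absent there. The legend for the protein and transcript of Bmal1 names male mice, whereas the ambient libraries here had high Xist. By the counts, a different measure, Arntl was higher and Nr1d1 lower in bBMKO.

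Among the other clock genes, most activators went up with Nfil3, while as many E-box repressors were called higher as lower. Over all genes, 3.88% were called higher and 4.75% lower in bBMKO in ambient libraries, and 9.67% and 13.1% in cold ones. The 4 clock activators had a median log2 fold change of 1.13 at ambient temperature and 1.36 in the cold. Of them, 3 were called higher in bBMKO at each temperature and 0 lower. These were Arntl, Clock (166 CPM in bBMKO and 76.4 in bBMCtr at ambient temperature, log2 fold change 1.12, adjusted p = 0.000142) and Npas2, a partner of Bmal1 in place of Clock (60.3 and 1.31 CPM, 5.52, adjusted p = 4.98e-07). Of 8 repressors that act on Bmal1 and Clock, 2 were called higher and 2 lower at each temperature, beside the same shares of all genes. Cry1 was higher (log2 fold changes 1.09 in ambient and 1.62 in cold libraries), as was Cry2 (0.65 and 0.67). The Cry2 call was lost in 4 of 20 alternatives for the ambient libraries, among them without ambient bBMCtr replicate 1 (0.54) or ambient bBMKO replicate 1 (0.53), and in 3 of 20 for the cold ones, among them without cold bBMKO replicate 2 (0.58). Per3 (−1.31 and −1.67) and Ciart (−1.12 and −1.99) were lower.

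Of 6 genes of the Rev-erb co-repressor complex, 0 were called between genotypes at either temperature, beside 8.63% of all genes in ambient and 22.8% in cold libraries. DESeq2 also called 0, and at an unadjusted p under 0.05 there were 2 in ambient and 3 in cold libraries by edgeR. The smallest p-values at ambient temperature were those of Gps2 (log2 fold change −0.26, adjusted p = 0.181) and Hdac3, the histone deacetylase of the complex (0.17, adjusted p = 0.201). Hdac3 (0.27, adjusted p = 0.0152) and Tbl1xr1 (−0.50, adjusted p = 0.00913) had the smallest in the cold, under the fold limit. Of 9 clock kinases and ubiquitin ligase genes, 0 were called by edgeR or DESeq2, beside the same shares of all genes, with 0 at an unadjusted p under 0.05 in ambient and 2 in cold libraries, and the smallest p-values were those of Fbxl21 (−0.48, adjusted p = 0.261) and Gsk3a (−0.09, adjusted p = 0.446) at ambient temperature and of Gsk3b (0.29, adjusted p = 0.00602) and Gsk3a (0.17, adjusted p = 0.0721) in the cold.

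**Figure D4:**
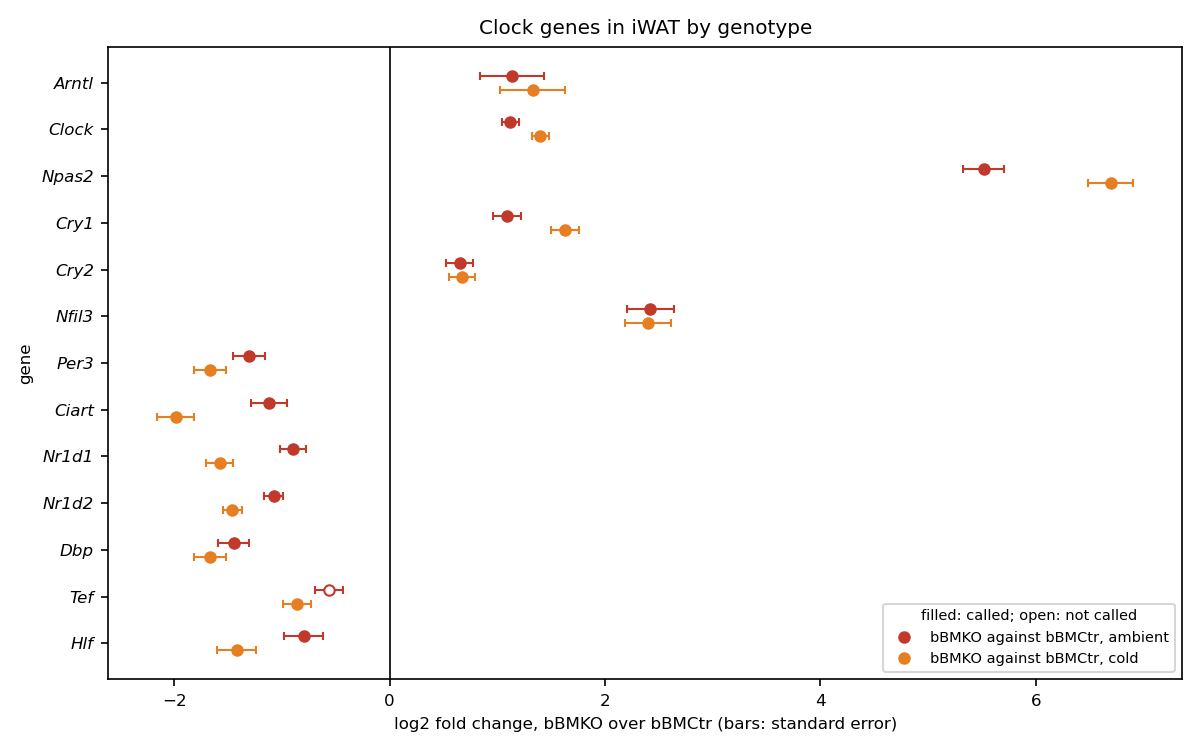
Log2 fold changes (x axis), bBMKO over bBMCtr, at ambient temperature and in the cold, of clock genes (y axis) called at 1 temperature at least. Bars are standard errors from edgeR, and filled points were called. Clock genes called at neither temperature, such as Rora, Bhlhe40 and Bhlhe41, are not drawn. Arntl, Clock, Npas2, Cry1, Cry2 and Nfil3 lie to the right of 0 and Per3, Ciart, Nr1d1, Nr1d2, Dbp, Tef and Hlf to the left, with Npas2 reaching 6.69 in the cold.

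Of 11 genes that Rev-erb is known to repress or ROR to activate, 6 were called higher in bBMKO and 1 lower at each temperature, beside 3.88% higher and 4.75% lower over all genes in ambient and 9.67% and 13.1% in cold libraries (median log2 fold changes 1.09 for ambient and 1.33 for cold libraries, with −0.01 and 0.05 over all genes). Nfil3, itself a member, Arntl, Clock, Npas2 and Cry1 made up 5 of the 6 at each temperature, so the list repeats genes already given. The sixth was Elovl3, a fatty acid elongase that is also a brown fat marker, at ambient temperature (5.99 ± 5.11 CPM in bBMKO and 0.27 ± 0.22 CPM in bBMCtr) and Plin2, a lipid droplet protein, in the cold (log2 fold change 0.63, adjusted p = 0.102). The calls of Elovl3 and Plin2 were lost in 8 and 13 of 20 alternatives. E2f8, a cell cycle factor, was the lower gene (−1.21, adjusted p = 0.191, and −2.15, adjusted p = 0.0127), and its ambient call was lost in 5 of 20. Elovl3, Plin2 and E2f8 are named because they complete these counts, and were chosen after their values were seen.

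Of 10 genes that PAR bZIP factors are known to activate, 8 were tested (Nr1i3 and Gsta2 fell under the filter), 0 were called higher and 1, Per3, was lower at each temperature, beside 8.63% of all genes called in ambient and 22.8% in cold libraries. Tspo, a mitochondrial membrane protein, was at 191.8 CPM in bBMKO and 142.3 CPM in bBMCtr at ambient temperature (log2 fold change 0.43, adjusted p = 0.035) and at 257.6 and 178.7 CPM in the cold (0.53, adjusted p = 0.00424), under the fold limit. The median log2 fold change was −0.15 at ambient temperature and −0.27 in the cold. Between temperatures, Alas1, the first enzyme of haem synthesis, was higher in cold than in ambient bBMKO (361 and 235 CPM, log2 fold change 0.62, adjusted p = 0.0391), a call lost in 5 of 20 alternatives. Por, which passes electrons to cytochrome P450 enzymes, was at 0.55 in bBMCtr (adjusted p = 0.0458) and under the fold limit, as was Tspo (0.33, adjusted p = 0.0431).

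In the other comparisons of these lists, cold against ambient bBMCtr gave lower Npas2 (−1.04, adjusted p = 0.0117) and Bhlhe41 (−1.64, adjusted p = 0.00525) and higher Ciart (0.82, adjusted p = 0.00669). Cold against ambient bBMKO gave lower Bhlhe41 (−2.09, adjusted p = 0.00112) and Bhlhe40 (−1.17, adjusted p = 0.0967, lost in 5 of 20 alternatives), repressors of the E-box. Among target genes, Lpl, the lipoprotein lipase, was higher in the cold in bBMKO (0.64) and bBMCtr (0.71), and Gpam, an enzyme of triglyceride synthesis, was lower (−0.82 and −0.67). The Lpl call was lost in 4 of 20 alternatives in bBMKO and 1 in bBMCtr, and the Gpam call in 0 and 2. Elovl3 had 0.906, 0.892 and 23.5 CPM in cold bBMCtr, against 0.0493, 0.29 and 0.485 CPM in ambient bBMCtr, so that replicate 3 of cold bBMCtr stood apart. Its log2 fold change of 4.93 (adjusted p = 0.118) was 1.71 (adjusted p = 0.648) without that library, and the call was lost in 5 of 20 alternatives. The interaction estimate of Ciart was −0.87 (adjusted p = 0.36).

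For each member called between genotypes, the genes with the most similar profile were found as those with the smallest root mean square difference of log2 CPM, centred per gene, over the 12 libraries, among 14072 genes of at least 1 CPM on average. For Dbp these were Per3 (0.11), Gm19522 (0.24) and Nr1d1 (0.24). Per3 (0.23), Dbp (0.24) and Hlf (0.25) were nearest to Nr1d1, and Lonrf1 (0.18), Strip2 (0.20) and Hlf (0.21) to Nr1d2. For Hlf they were Lonrf1 (0.16), Nr1d2 (0.21) and Per3 (0.23). Members of the family thus stood among the 3 nearest genes of Nr1d1, Nr1d2, Dbp and Hlf. Tef lay nearest to Coq10b (0.12), Tspan4 (0.14) and Smarca2 (0.17), none of them a member. Nfil3 lay nearest to Xrcc3 (0.32), Col5a3 (0.35) and Sh3pxd2a (0.39), all at a wider distance than the neighbours of the other members. These distances describe likeness over libraries that share their genotype groups.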

How the data were processed

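RNA of 12 iWAT libraries was sequenced as single reads of 51 cycles. Per the labels and the study's methods, the authors aligned reads to mm10 with STAR and counted unique reads per gene with HTSeq, and deposited counts and log2(FPKM + 0.1). The submitters' processing notes name STAR, HTSeq, DESeq2, limma and edgeR, without versions, and no source used here gives the strand setting. The study's filter, FPKM above 0.1 in 50% or more of the libraries, kept 15413 of 24091 genes. Their deposited counts, with TMM scaling, entered 1 quasi-likelihood fit of the 4 group means to all 12 libraries in edgeR 4.0.16 under R 4.3.3. Calls used the study's limits, applied to edgeR and not to DESeq2. CPM use the TMM-scaled library size, with a prior count of 2 for log2 CPM, and FPKM were taken back from the deposited log2 values. The study's comparisons were bBMKO against bBMCtr and cold against ambient temperature, and their interaction was added. TMM factors were 0.870 to 0.916 in cold bBMKO and 0.974 to 1.13 elsewhere.

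Named genes were the 7 members, Arntl, genes overlapping a member, per clock or target list up to 4 called genes of smallest p (2 if none), and 3 genes of most similar profile per called member. Members and lists were chosen with earlier results of these data known. A gene of these lists is not reported here. The study's methods speak of at least 3 biological replicates and a legend gives n = 3 for the RNA-seq groups, while the labels name no mouse for a library, so p-values measure the spread between these libraries. No pair of libraries was a duplicate (chi-square per gene 17.0 to 113.7). Tested on simulated data for the ambient genotype comparison with 15413 genes, the fit recovered 29.9% of 67 genes changed 1.5-fold. It recovered 73.1% of 67 changed 2-fold and 97.0% of 66 changed 4-fold, and called 22 of 15213 unchanged genes. The share of genes changed there was smaller than the 8.63% called in the data. Since the adjusted p depends on that share, these rates may differ in the data. Alternatives were DESeq2 1.42.0, RLE factors, library size alone, no filter, edgeR's filter, only the groups compared, a replicate block, limma 3.58.1 on log2 FPKM as deposited, leaving out each library, and an adjusted p under 0.05 with no fold limit. Promoters were read from RefSeq (GRCm38.p6).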

Additional observations from a re-analysis of the deposited data

Results flagged for a closer look

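Npas2, a clock activator that can replace Clock, passed the call limits for a genotype effect that differs between temperatures, but the call depended on the fit. The genotype effect in the cold minus that at ambient temperature was 1.18 on the log2 scale (adjusted p = 0.211 by edgeR). Npas2 had 74.7, 58.3 and 66.3 CPM in cold bBMKO, against 0.906, 0.469 and 0.534 CPM in cold bBMCtr, and 59.6, 59.5 and 61.7 CPM in ambient bBMKO, against 1.08, 1.35 and 1.51 CPM in ambient bBMCtr. The bBMKO libraries overlapped between temperatures, while each bBMCtr library was lower in the cold. For cold against ambient bBMKO the log2 fold change was 0.14 (adjusted p = 0.522 by edgeR). The estimate thus rests mainly on low bBMCtr values, at or below 1.51 CPM. Sex, and perhaps age and hour of collection, also differ between the temperatures. The call was lost in 12 of 19 alternatives, and the estimate ranged from 0.66 to 1.49.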

How the results depend on the processing

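Of 42 results for single members, 29 kept their direction and side of the threshold in every alternative, and no call of a member was lost in 826 alternative values. With the replicate block 5 members were called in the ambient and 6 in the cold libraries, and calls over all genes at 1051 and 3443. Replicate numbers were not taken to pair libraries in the main fit. Between genotypes, deviations of same-numbered libraries had correlations of −0.70 to −0.37 at ambient temperature and of −0.07 to 0.14 in the cold. Between temperatures these were −0.08 to 0.17 in bBMKO and −0.17 to 0.45 in bBMCtr.

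At an adjusted p under 0.05 with no fold limit, 2 members were called between temperatures in bBMKO (Nr1d2, Rora) and 2 in bBMCtr (Nr1d1, Rora). The interaction called 1 member, Nr1d1, with DESeq2, library size alone and limma. With each library left out, members called ranged from 0 to 1 for cold in bBMKO, from 1 to 2 for cold in bBMCtr and from 0 to 1 for the interaction. The cold bBMKO level of Nr1d2 over bBMCtr was 0.364 in CPM and 0.320 in FPKM.

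Reversed signs were all near 0 and none was a call. With library size alone Rora was at −0.0086, −0.0503 and −0.0294 between genotypes (ambient, cold, mean) and −0.0417 for the interaction, and cold in bBMKO was −0.0882 for Nr1d1, −0.0531 for Dbp and −0.0796 for Tef. In limma these were −0.0167 for Rora in the cold, −0.0367 for its interaction, and −0.06, −0.02 and −0.0533 for Nr1d1, Dbp and Tef. With each library left out, Rora ranged from −0.0343 to 0.24 at ambient temperature and from −0.0972 to 0.17 for the interaction, Nfil3 from −0.24 to 0.12 for cold in bBMCtr and from −0.28 to 0.0835 for the interaction, and cold in bBMKO from −0.0569 to 0.18 for Nr1d1, −0.0506 to 0.16 for Dbp and −0.0169 to 0.13 for Tef. The cause was not tested.

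Calls over all genes moved by more than 1.5 times from 1330 at ambient temperature to 628 (adjusted p under 0.05), 618 (only the groups compared) and 526 to 2089 (1 library left out). Those in the cold moved from 3513 to 5354 and those of the mean from 2751 to 6066 at an adjusted p under 0.05. For the interaction all genes called were 118, against 24 (adjusted p under 0.05), 288 (DESeq2), 76 (limma), 57 (replicate block) and 41 to 1767 (1 library left out). With library size alone calls split into 592 higher and 2491 lower for cold in bBMKO (988 and 1917 with TMM) and 565 and 2389 for the mean (984 and 1767). With only the groups compared, the mean and the interaction were not run.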
